A study of Mus musculus with 7 samples.

Results

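The heat shock chaperones described here are 10 genes of the cytosol and the mitochondrion: Hspa1a, Hspa1b and Hspa8 of the HSP70 family, Hsp90aa1 and Hsp90ab1 of the HSP90 family, the J proteins Dnajb1 and Dnaja1, the HSP110 protein Hsph1, and the mitochondrial chaperonin pair Hspd1 and Hspe1. They were chosen by name, and each was read from the array probes that carry its symbol alone. Of the 10 genes, 9 had such a probe, 18 probes in all among 45281, and Hsp90ab1 was not analysed here. Of the 19057 genes with a named probe, 5428 had a mean log2 signal of at least 7.5 over the arrays and were tested, and 6 of the 10 chaperones were among them: Hspa8, Hsp90aa1, Dnajb1, Hsph1, Hspd1 and Hspe1. The cells came from the femoral marrow of male C57BL/6J mice, 10 to 12 weeks old, that had carried an osmotic pump under the skin for 24 h. The pump delivered saline in the control group (n = 3 samples) and serotonin (5-HT), filled at 25.8 mM, in the other (n = 4 samples). Marrow from 3 to 4 mice went into each sample, which was enriched on Percoll and with beads against the platelet glycoprotein CD41. Each sample was hybridized to 1 array of an Illumina mouse BeadChip, and the methods do not say which samples shared a chip. These cells are called MKs, for megakaryocytes, the marrow cells that shed platelets.

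Chaperones bind proteins that are not folded and keep them from clumping. HSP70 proteins hold and release short stretches of a client in cycles that use ATP; J proteins bring clients to HSP70 and start the cycle, and HSP110 proteins such as Hsph1 reset it by exchanging the nucleotide. HSP90 proteins act later, on clients such as kinases and steroid receptors, and the ring of Hspd1 (HSP60) with its lid Hspe1 (HSP10) folds proteins brought into the mitochondrion. Hspa8 and Hsp90ab1 are made in most cells at all times, while Hspa1a, Hspa1b, Dnajb1, Hsph1 and Hsp90aa1 are known for their rise after heat, when the heat shock factor HSF1 binds repeats of a short element in their promoters. In platelets, HSP70 and HSP90 proteins are abundant.

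The heat shock element is built of inverted copies of the unit GAA. RefSeq promoter windows of GRCm38.p6, from 250 bases before to 50 bases after an annotated start, were at hand for 7 of the 10 genes, 12 windows in all, and were searched on both strands for a pair of units, GAANNTTC or TTCNNGAA, and for 3 units in a row, GAANNTTCNNGAA or TTCNNGAANNTTC; both pairs lie within the longer motifs. A pair was found in windows of 6 of the 7 genes, Dnajb1 being the exception, and 3 units in a row in those of Hsph1, Hspd1 and Hspe1. Over all 32851 windows, which belong to 27025 genes, 15.1% held a pair and 0.603% held 3 units in a row. These are shares of windows, while the counts above are of genes, some with more than 1 window. The stretches that hold the first pair are shown because they set the inducible and the mitochondrial genes side by side; capitals mark the pairs of units.
Hspe1, chr1:55088053-55088082, plus strand, first pair from 89 bases before the start: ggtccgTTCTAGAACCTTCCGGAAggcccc
Hspd1, the same bases on the minus strand, first pair from 144 bases before 1 of its 2 starts: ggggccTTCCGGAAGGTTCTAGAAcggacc
Hsph1, chr5:149636351-149636380, minus strand, first pair from 33 and 54 bases before its 2 starts: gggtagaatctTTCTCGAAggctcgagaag
Hspa1a, chr17:34972197-34972286, minus strand, first pair from 104 bases before the start: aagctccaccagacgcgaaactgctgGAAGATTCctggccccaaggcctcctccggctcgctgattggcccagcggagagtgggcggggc
The block of 18 bases in capitals is shared by Hspd1 and Hspe1, which lie head to head on chromosome 1 and read it from opposite strands, with these starts 216 bases apart. The stretch of Hspa1b, at chr17:34959279-34959368, is the same as that of Hspa1a, and the whole windows of both genes differ at 4 of 300 bases. A match is a description of the letters and says nothing of binding in these cells.

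The deposited values are log2 signals that the authors had shifted to a common median of 6.68 over all probes in each array. The spread was left as it was, and the SD over all probes ran from 0.96 to 1.33. Over the tested genes the median signal was 8.99, 8.15 and 8.32 with saline and 9.43, 8.28, 8.96 and 9.03 with 5-HT, and over these genes the log2 fold change, 5-HT minus saline, had a median of 0.42. The samples differed in their megakaryocyte transcripts too. The summed unlogged signal of 11 tested genes of a list of 15 megakaryocyte markers, among them Itga2b, the gene of CD41 itself, was 51222 in saline replicate 1, 14062 in saline replicate 2 and 13289 in saline replicate 3, against 56059, 12543, 24666 and 52461 in 5-HT samples 1 to 4. Itgb3 and Clec1b, at mean signals of 6.82 and 7.26, were below the limit for testing, and the other 2 had no named probe. The sum of all 13 granulocyte markers was 203532 to 249011 with saline and 255857 to 297287 with 5-HT, and that of 2 tested genes of 7 eosinophil markers 578 to 1374 and 1865 to 18122. Gene by gene, the 13 granulocyte markers had a median log2 fold change of 0.37, under the 0.42 of all genes. Of the 13, 4 lay above the median of all genes and 3 below 0. The groups overlapped for 4 tested genes of 8 erythroid markers, 8640 to 16926 and 3486 to 14791. They also overlapped for 3 tested genes of 6 basophil and mast cell markers, 464 to 1057 and 584 to 6060. For 5 tested genes of 9 monocyte and macrophage markers, 4137 to 10448 and 6599 to 15430, they overlapped too. Of 7 B cell markers only Cd79b was tested, and its groups overlapped, 744 to 1168 and 798 to 2610. Of 6 T and NK cell markers only Nkg7 was tested, and its groups, 2798 to 5257 and 5257 to 6841, met at 5257. The values of these last 2 lists are thus those of 1 gene each. The part of these differences in the results below was not tested. In samples of mixed cells, fewer cells of a type and less RNA per cell cannot be told apart.

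In the fit of limma over 5428 genes, 0 genes (0%) passed an adjusted p under 0.05, the 6 tested chaperones included, while 311 (5.73%) had an unadjusted p under 0.05, with 0 of the 6 among them. An unadjusted p under 0.05 together with a change of more than 1.5-fold, the threshold of the study's methods, was met by 5.71% of the genes with higher and by 0.0184% with lower signals after 5-HT, and again by 0 of the 6. Groups that did not overlap, which 6.28% of the genes showed with higher and 0.129% with lower signals, were found for 0 of the 6. As a description of their place among the genes, their median log2 fold change was -0.01, with 3 values above and 3 below 0, where 91.4% of all tested genes lay above and 8.62% below 0. Hspa8 and Dnajb1 lay above the median of all genes, and Hsp90aa1, Hsph1, Hspd1 and Hspe1 below it. The distance of the median of the 6 from that of all genes rested in large part on 1 array. When saline replicate 1 was left out, the median of the 6 was 0.59 and that of all genes 0.64. Without saline replicate 2 they were -0.32 and 0.26. Single genes differed in this. Relative to the median of all genes, Hsph1 was at -0.45 with all samples and at -0.02 without saline replicate 1. Hspd1 was at -0.41 and -0.09, but Hsp90aa1 was at -1.20 and -1.38, and Hspe1 at -0.53 in both fits.

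**Figure D1:**
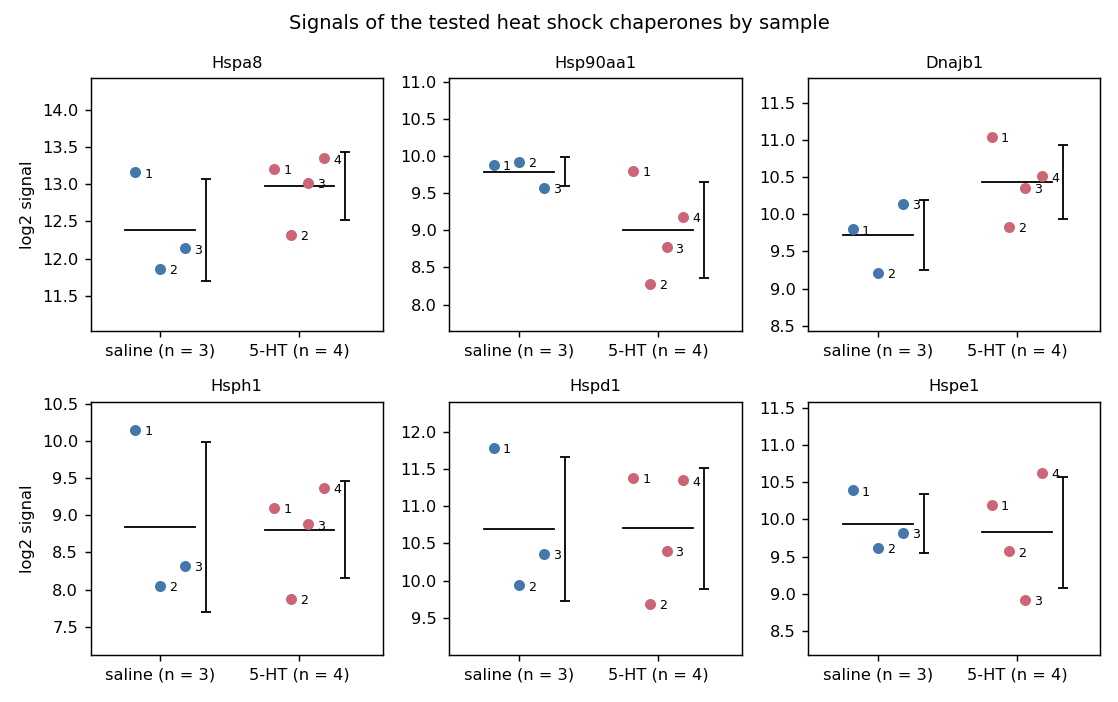
Log2 signals of the brightest probe of each of the 6 tested chaperones (vertical axis) in 3 saline and 4 5-HT samples. Points are samples labelled with their replicate number, horizontal lines are group means and bars are SDs; all panels span the same number of log2 units, and in each of them the groups overlap.

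Hsp90aa1, the inducible cytosolic HSP90, had the lowest value of the chaperones after 5-HT relative to saline. Its log2 signal was 9.88, 9.92 and 9.57 in saline samples 1 to 3 and 9.80, 8.28, 8.77 and 9.18 in 5-HT samples 1 to 4. All 5-HT samples except replicate 1 lay below all saline samples. The means were 9.79 ± 0.19 (SD, n = 3) and 9.01 ± 0.64 (SD, n = 4), and the log2 fold change was -0.78 (95% interval -1.60 to 0.04, standard error 0.40, limma adjusted p = 0.563). Of the 5428 genes, 1 had a lower fold change than Hsp90aa1. With all arrays forced to 1 distribution by quantile normalization, its log2 fold change was -1.22 (standard error 0.23, unadjusted p = 3.41e-04, adjusted p = 0.820), rank 3 from the lowest.

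Hsp90aa1 was also read by its place within each array, which no shift of the array changes. Among the tested genes of its own array it stood at the percentiles 73.3, 84.9 and 77.8 with saline and 59.5, 50.1, 44.6 and 54.3 with 5-HT. The groups did not overlap, as was the case for 3.48% of the tested genes with higher and 2.23% with lower percentiles after 5-HT. No other chaperone had percentiles that parted the groups.

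**Figure D2:**
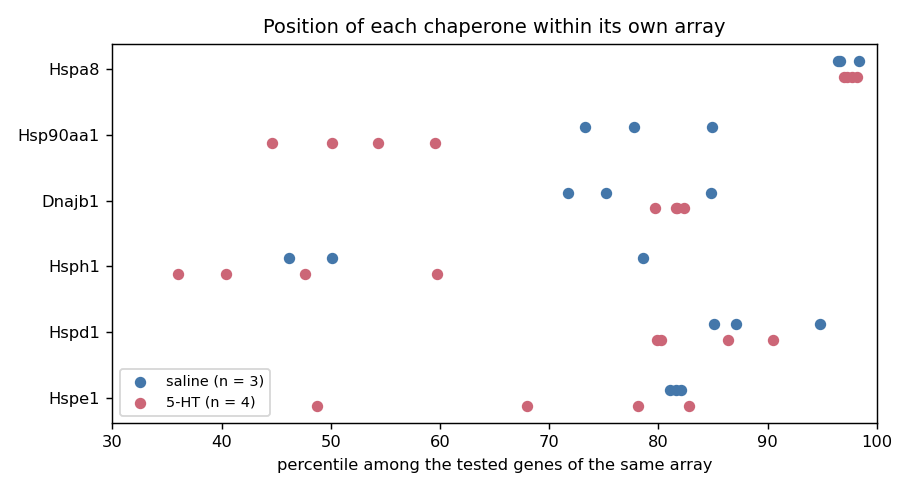
Percentile of each tested chaperone among the 5428 tested genes of the same array (horizontal axis), 1 point for each of 3 saline and 4 5-HT samples. For Hsp90aa1 all 5-HT samples, 44.6 to 59.5, lie to the left of all saline samples, 73.3 to 84.9; for the other 5 genes the groups overlap.

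The other probes of Hsp90aa1 did not repeat this pattern. The second brightest, with a mean signal of 7.48, just under the limit, gave 8.25, 7.38 and 7.09 with saline and 7.82, 7.17, 7.28 and 7.40 with 5-HT, a difference of -0.16. Saline replicate 2, the highest sample with the brightest probe, was thus among the middle ones here. The third probe was near the median of all probes, between 6.63 and 6.94. With the mean of the 3 probes the log2 fold change was -0.35 (adjusted p = 0.575 from limma). Its log2 fold change with the brightest probe was -1.05 without 5-HT replicate 1 and -0.54 without 5-HT replicate 2, and it stayed below 0 with each of the 7 samples left out in turn.

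Hspa8, the constitutive HSP70, was the brightest chaperone probe, at or above percentile 96.4 in every array. Its log2 signal was 13.16, 11.86 and 12.14 in saline samples 1 to 3 and 13.21, 12.32, 13.02 and 13.35 in 5-HT samples 1 to 4. The groups overlapped, with saline replicate 1 above 5-HT replicates 2 and 3. The means were 12.39 ± 0.68 (SD, n = 3) and 12.98 ± 0.46 (SD, n = 4), a log2 difference of 0.59 (95% interval -0.25 to 1.42, standard error 0.40, limma adjusted p = 0.563), 0.17 above the median of all genes. With each sample left out in turn it ranged from 0.33 to 0.97. A second bright probe of Hspa8, at 13.04, 11.56 and 12.17 with saline and 13.27, 12.06, 12.79 and 13.19 with 5-HT, gave nearly the same fold change, 0.57. The dimmest Hspa8 probe gave another pattern, with 9.31, 7.52 and 7.52 with saline, 9.15, 7.29, 6.92 and 8.96 with 5-HT and a log2 fold change of -0.04. The 3 samples that stood out on this probe, saline replicate 1 and 5-HT replicates 1 and 4, were those with sums of megakaryocyte markers of 51222 to 56059, against 12543 to 24666 in the other samples.

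**Figure D3:**
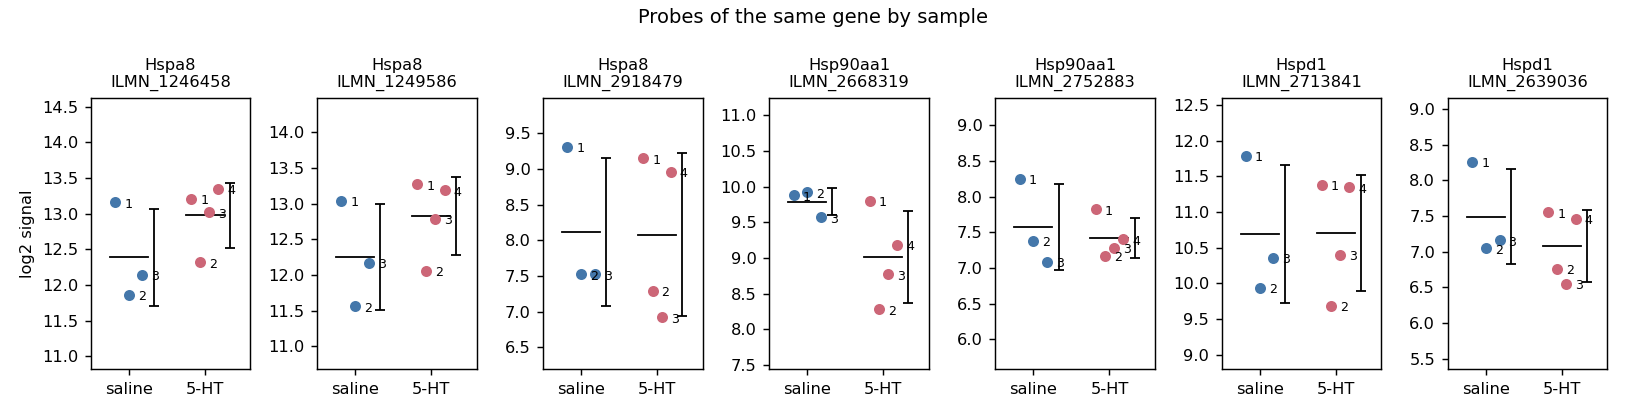
Log2 signals (vertical axis) of the probes of Hspa8, Hsp90aa1 and Hspd1 with a mean above 7, in 3 saline and 4 5-HT samples numbered by replicate, with group means (lines) and SDs (bars). The 2 brighter Hspa8 probes repeat each other, and the third, at 6.92 to 9.31, parts saline replicate 1 and 5-HT replicates 1 and 4 from the other samples.

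The stress-inducible HSP70 genes Hspa1a and Hspa1b were near the median of all probes. Hspa1b was between 6.58 and 6.75 on the brighter of its 2 probes, with the dimmer one between 6.50 and 6.77. Hspa1a was 7.73 in saline replicate 1 on its brightest probe and between 6.55 and 6.85 in the other 6 samples, and its other 2 probes stayed between 6.50 and 6.77 in all samples. The twin genes could not be compared between the groups at this signal, and nothing in the annotation shows whether their probes tell them apart. The array with the raised Hspa1a probe also held the highest summed signal of 7 tested genes of a list of 10 immediate early genes, 25008, against 3820 and 4205 in the other saline samples and 3771 to 14869 with 5-HT; whether they are linked was not tested.

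Dnajb1, the J protein of the heat response (HSP40), had the highest log2 fold change of the chaperones. Its log2 signal was 9.80, 9.21 and 10.14 in saline samples 1 to 3 and 11.04, 9.83, 10.36 and 10.51 in 5-HT samples 1 to 4. The only overlap was between saline replicate 3 and 5-HT replicate 2. The means were 9.72 ± 0.47 (SD, n = 3) and 10.44 ± 0.50 (SD, n = 4), a log2 difference of 0.72 (95% interval -0.09 to 1.53, standard error 0.39, limma adjusted p = 0.563). It was 0.26 after quantile and 0.22 after cyclic loess normalization, and as a rank within its array Dnajb1 stood at 71.7, 75.2 and 84.8 with saline and at 79.7 to 82.3 with 5-HT. Its fold change fell to 0.47 without saline replicate 2. Dnaja1, the other J protein, was between 6.56 and 6.93 on the brighter of its 2 probes and could not be compared.

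Hsph1, the HSP110 partner of HSP70, was 10.15, 8.05 and 8.32 in saline samples 1 to 3 and 9.10, 7.88, 8.88 and 9.37 in 5-HT samples 1 to 4. Saline replicate 1 was the highest of all 7 samples, and the other saline samples lay below 5-HT replicates 1, 3 and 4. The means were 8.84 ± 1.14 (SD, n = 3) and 8.81 ± 0.65 (SD, n = 4), and the log2 fold change was -0.03 (95% interval -1.0 to 0.94, standard error 0.47, limma adjusted p = 0.965). The value moved with single arrays in both directions: it became 0.62 without saline replicate 1 (limma adjusted p = 0.281) and 0.28 without 5-HT replicate 2, but -0.43 and -0.29 when saline replicates 2 and 3 were left out in turn. Within its array Hsph1 stood at 78.6 in saline replicate 1 and at 36.0 to 59.7 in the other 6.

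Hspd1, the ring protein of the mitochondrial chaperonin, was 11.79, 9.94 and 10.36 with saline and 11.38, 9.69, 10.40 and 11.35 with 5-HT. Saline replicate 1 and 5-HT replicates 1 and 4 were the highest, as they were in the sum of megakaryocyte markers. The means were 10.70 ± 0.97 (SD, n = 3) and 10.71 ± 0.82 (SD, n = 4), a log2 difference of 0.01 (95% interval -0.96 to 0.98, standard error 0.47, limma adjusted p = 0.991), and a second, dimmer probe between 6.55 and 8.26 had a difference of -0.41. The value of Hspd1 moved from -0.37 without saline replicate 2 to 0.56 without saline replicate 1, and it was -0.52 after quantile normalization (adjusted p = 0.820).

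Hspe1, the lid of the same chaperonin, was 10.39, 9.62 and 9.82 with saline and 10.20, 9.57, 8.92 and 10.63 with 5-HT. It followed Hspd1 in most samples but not in 5-HT replicate 3, where Hspe1 had its lowest signal and Hspd1 one of its middle ones. The means were 9.94 ± 0.40 (SD, n = 3) and 9.83 ± 0.75 (SD, n = 4), a log2 difference of -0.11 (95% interval -0.97 to 0.75, standard error 0.42, limma adjusted p = 0.862), and it turned to 0.19 without 5-HT replicate 3 and to 0.11 without saline replicate 1. Its percentile was 81.1 to 82.1 with saline and 68.0, 78.1, 48.7 and 82.8 in 5-HT samples 1 to 4. The signal of Hspd1 minus that of Hspe1, 2 genes with the promoter block shown above, was 1.40, 0.32 and 0.54 with saline and 1.18, 0.12, 1.48 and 0.72 with 5-HT, which overlapped.

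**Figure D4:**
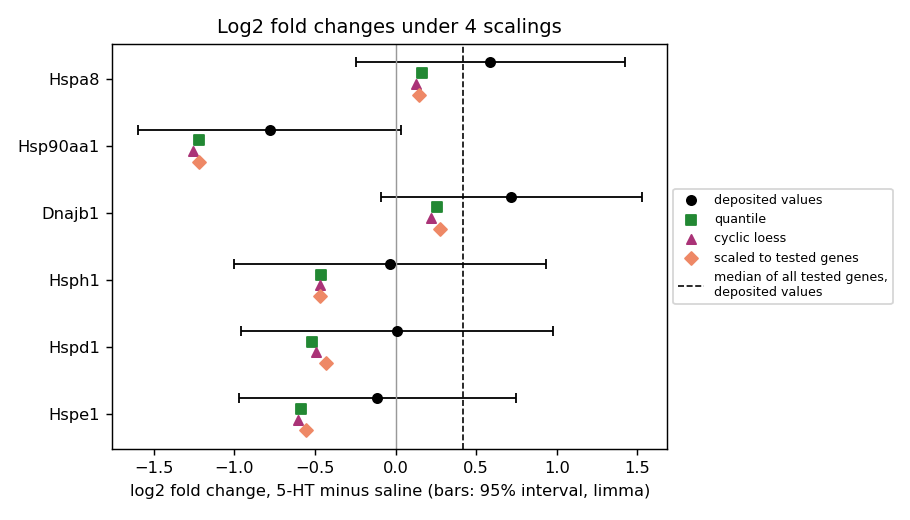
Log2 fold change, 5-HT minus saline (horizontal axis), of the 6 tested chaperones with the deposited values (circles, with the 95% interval of limma), after quantile or cyclic loess normalization and with a common median over the tested genes. Hsp90aa1 lies furthest to the left under each of the 4 scalings, from -1.26 to -0.78, and the dashed line marks the median of all tested genes with the deposited values, 0.42.

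The difference between the signals of 2 genes within an array does not change when the array as a whole is shifted, although its size also holds the unlike brightness of the probes and carries no meaning of its own. The unlike spread of the arrays, with SDs over all probes from 0.96 to 1.33, can still change such a difference, most for genes of unlike brightness. Among the 15 pairs of tested chaperones the groups did not overlap in 3, where 6.80% of all 14728878 pairs of tested genes showed this; the 15 pairs share their genes, and the pairs named here were chosen after their values were seen. Hsp90aa1 minus Dnajb1 was 0.08, 0.71 and -0.57 with saline and -1.24, -1.55, -1.59 and -1.33 with 5-HT. Hspa8 minus Hsp90aa1 was 3.28, 1.94 and 2.57 with saline and 3.41, 4.04, 4.25 and 4.17 with 5-HT. Hspa8 minus Hsph1 was 3.01, 3.81 and 3.82 with saline and 4.11, 4.44, 4.14 and 3.98 with 5-HT. In each of these pairs Hspa8 or Dnajb1 was thus higher with 5-HT relative to Hsp90aa1 or Hsph1, as measured by the brightest probes.

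The partners of these chaperones were read from a list of 95 other genes, of which 89 had a probe and 53 were tested. With limma, 0 of the 53 had an adjusted p under 0.05, where 0% of all tested genes did. A fold change of 1.5 with an unadjusted p under 0.05 was met by 1 of the 53. Of all tested genes, 5.71% met it with higher and 0.0184% with lower signals after 5-HT. The 1 gene of the 53 was Bag6, a cochaperone that guards newly made membrane proteins. Bag6 was 10.29, 9.15 and 8.78 with saline and 10.30, 9.39, 11.02 and 10.69 with 5-HT. Its log2 difference was 0.94 (standard error 0.44, limma adjusted p = 0.563). The median log2 fold change of the 53 was 0.36, against 0.42 for all tested genes and -0.01 for the 6 chaperones, and 18 of the 53 exceeded the median of all genes. Without saline replicate 1 these 3 medians were close, at 0.62 for the 53, 0.64 for all genes and 0.59 for the 6, and without saline replicate 2 they were 0.19, 0.26 and -0.32. Below 0 were 5 of the 53, named after their values were seen: the J proteins Dnajb6 (-0.50) and Dnajc2 (-0.03), the HSP110 protein Hspa4l (-0.02), the HSP90 cochaperone Ptges3 (-0.03) and the chaperonin subunit Tcp1 (-0.10).

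Among the cochaperones of HSP90, 10 genes were tested, with a median log2 fold change of 0.40. They were led by Fkbp4 (0.71, standard error 0.44), an immunophilin of steroid receptor complexes, and by Stip1 (0.67, standard error 0.53), which joins HSP70 to HSP90. Stip1 was 10.54, 8.20 and 8.41 with saline and 9.94, 8.24, 10.26 and 10.43 with 5-HT, with saline replicate 1 the highest and 5-HT replicate 2 close to the lowest. The cochaperones and nucleotide exchange factors of HSP70 had a median of 0.46 over 7 genes, with the ubiquitin ligase Stub1 (0.54, standard error 0.41) next to Bag6. Of 8 other J proteins, with a median of 0.28, Dnajc5 (0.84, standard error 0.44), a J protein of secretory vesicles, and Dnajc8 (0.61, standard error 0.41) had the highest values. The HSP70 relatives Hspa4 (0.44, standard error 0.47), a nucleotide exchange factor, and Hspa2 (0.40, standard error 0.39) were near the median of all genes.

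The subunits of the cytosolic chaperonin TRiC, which folds actin and tubulin, had a median of 0.22 over 6 genes, none of them above the median of all genes, with Cct8 (0.41) and Cct4 (0.41) the highest. The 4 tested subunits of prefoldin, which hands such clients to TRiC, had a median of 0.25, with Pfdn5 at 0.33 and Pfdn4 at 0.28. In the mitochondrion, 13 other chaperones and proteases had a median of 0.36, all above 0, led by Timm44 (0.56, standard error 0.42), a part of the import motor, and Hspa9 (0.48, standard error 0.46), the mitochondrial HSP70. Hspa9 was 11.31, 9.60 and 10.11 with saline and 11.36, 9.67, 10.83 and 11.42 with 5-HT, an order of samples close to that of Hspd1. Hsbp1, a binding protein of heat shock factors, had a log2 difference of 0.47 (standard error 0.39) and the small heat shock protein Hspb6 0.69 (standard error 0.40); each was the only tested gene of its list, of 5 and 10 genes. After quantile normalization the median of the 53 genes was -0.01 and that of the 6 chaperones -0.49, with 0.08 for all genes.

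**Figure D5:**
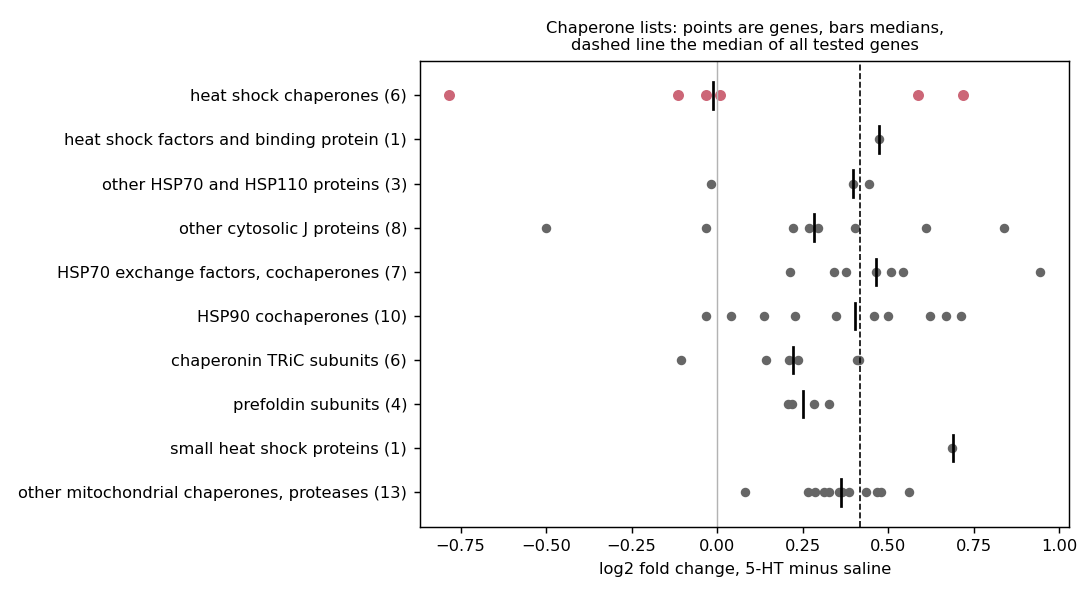
Log2 fold change, 5-HT minus saline (horizontal axis), of the 6 tested heat shock chaperones and of 53 other chaperone genes in 9 lists, with the number of genes in parentheses. Points are genes, short bars the medians of the lists and the dashed line the median of all tested genes, 0.42; the bar of the 6 chaperones lies at -0.01 and those of the other lists between 0.22 and 0.69.

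Over the 7 arrays, the gene whose log2 signals were most like the mean of the 6 chaperones, each centred on its own mean, was Mphosph9 (Pearson's r = 0.990), followed by Pfdn2 (0.988), a prefoldin subunit, Xpot (0.988), Armcx2 (0.983) and Nudt9 (0.983). The mean of the 6 was 0.60, -0.50 and -0.21 with saline and 0.52, -0.67, -0.21 and 0.47 with 5-HT, so that the high samples were saline replicate 1 with 5-HT replicates 1 and 4, and the groups overlapped. After quantile normalization the list was Pfdn2 (0.976), Psmc3 (0.964), Snrpd3 (0.956), Prdx1 (0.953) and Morf4l2 (0.949). These values of r describe 7 arrays, which differ in spread in the first list and were given 1 distribution in the second, and Pfdn2 is the gene that both lists hold.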

How the data were processed

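Gene expression was measured in CD41-selected marrow cells of 3 saline and 4 5-HT samples on Illumina BeadChips. The deposited values are log2 signals: per the methods, the authors took probe signals out of GenomeStudio, log transformed them and gave all arrays 1 median. The base of the logarithm is not stated in the methods and was read from the range of the values, and whether background was subtracted is not stated. The authors left out 1 control sample that they judged an outlier. The 14 value columns of a table of signals before normalization carry names that match no sample and were not used. Of 45281 probes, 34885 had 1 gene symbol, 18 several and 10378 none listed. Gene identifiers of 34807 matched RefSeq genes of GRCm38.p6, which changed 0 symbols.

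Each gene was represented by its brightest probe. Genes with a mean log2 signal of at least 7.5 were compared between groups in limma 3.58.1 (R 4.3.3; lmFit, then eBayes, with no covariate), which had 5 residual and 18.9 prior degrees of freedom, and p-values were adjusted over all 5428 genes after Benjamini and Hochberg. Fold changes are 5-HT minus saline, and standard errors are moderated by limma. The number of arrays limits the precision. As each array holds a pool of mice, p-values measure the spread between pools. The procedure was tested on simulated data. The chaperones, the lists and the tests were chosen with earlier results of these data known. Named genes outside the 10 chaperones are, in each list, those that pass the adjusted p or, if there are none, the 2 tested genes with the largest fold change in either direction, and the 5 genes most like the chaperones; those named outside this rule are marked. The alternatives were quantile and cyclic loess normalization, 1 common median over the tested genes, normexp with an offset of 16, no limit or a limit of 9 on the mean signal, probes averaged by gene or taken one at a time, a robust eBayes with a trend, weights for the arrays, a replicate block and leaving out samples. Where a fit with a block was made, 5-HT replicate 4 had no partner and did not contribute.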

Additional observations from a re-analysis of the deposited data

Results flagged for a closer look

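In Hspa4, a nucleotide exchange factor of HSP70, 5-HT replicate 2 stood apart from the other 5-HT samples. Its log2 signal was 7.73 there and 9.32, 9.08 and 9.18 in 5-HT replicates 1, 3 and 4, a gap of 0.849 of the range of the group, above Dixon's limit for 4 samples. In the saline samples Hspa4 was 9.64, 7.85 and 7.66. This was 1 of 44 sets of 5-HT values examined in this way, and chance gives such a gap in about 1 of 20. Over all tested genes, the median of 5-HT replicate 2 was also the lowest of its group. It was 8.28, against 9.43, 8.96 and 9.03 in 5-HT replicates 1, 3 and 4, a gap of 0.591 of the range.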

How the results depend on the processing

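With 3 against 4 arrays of unequal spread, the results moved with the arrays kept and their scaling. Leaving out each sample in turn gave 0 to 77 genes past an adjusted p of 0.05 with limma (0 with all 7), 55 to 1690 with an unadjusted p under 0.05 and a change of more than 1.5-fold (311 with all 7), a median log2 fold change of the chaperones from -0.32 to 0.59, where that of the 53 other chaperone genes ran from 0.19 to 0.62 and that of all genes from 0.26 to 0.64, and fold changes from -0.43 to 0.62 for Hsph1, -0.37 to 0.56 for Hspd1 and -0.38 to 0.19 for Hspe1; 0 chaperones passed an adjusted p under 0.05 in any of these fits. Those of Hspa8, Hsp90aa1 and Dnajb1 kept their signs, with -1.05 to -0.54 for Hsp90aa1.

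The count of 311 became 158 after quantile and 144 after cyclic loess normalization, 181 with a common median over the tested genes and 203 with normexp. The median of the chaperones became -0.49 after quantile and -0.48 after cyclic loess normalization. In the same order of 4 scalings, Hspd1 became -0.52, -0.49, -0.43 and 0.01, and Hsph1 0.003 with normexp; Hspd1 was -0.20 when probes were averaged by gene. The dimmer Hspa8 probe alone gave -0.037. With trend and robust, 3 genes passed an adjusted p under 0.05.

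Array weights were estimated from these same signals and groups. With them 3281 of the 5428 tested genes had a limma adjusted p under 0.05, and 3345 met the other threshold. Most tested genes thus passed, and 5 of the 6 chaperones and 37 of the 53 other chaperone genes were among the 3281. The chaperone median was 0.82 against 0.72 for the 53, with 0.84 for Hsph1 and 0.34 for Hspe1. Of the 5, Hspa8, Dnajb1, Hsph1 and Hspd1 were higher with 5-HT and Hsp90aa1 lower (-0.71, adjusted p = 0.0224). A further fit left out saline replicate 1 and 5-HT replicate 2 together. These had the highest median of the tested genes with saline, 8.99, and the lowest with 5-HT, 8.28. Leaving them out by itself draws the group medians apart, so the p-values of this fit cannot serve as support. The counts were 3071 and 3543 of the 5428 tested genes. Among the 3071 were 4 of the 6 chaperones and 32 of the 53 other chaperone genes. The chaperone median was 0.91, with 0.93 for Hsph1 and 0.20 for Hspe1. The 4 were Hspa8 (1.19, limma adjusted p = 0.00806), Dnajb1 (0.96, adjusted p = 0.0355), Hsph1 (adjusted p = 0.0197) and Hspd1 (0.89, adjusted p = 0.0463). Hsp90aa1 did not pass (-0.50, adjusted p = 0.206). The median of all genes was 0.83 there and that of array weights 0.69.

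The replicate numbers do not pair the samples by the labels, and the deviations of same-numbered samples correlated at 0.145, 0.684 and -0.247 across genes. With the replicate block, 45 genes passed an adjusted p under 0.05 and 1241 the other threshold, 0 chaperones among the former, and Hspd1 became -0.21. The cause of these changes was not tested. Of 109 fold changes of single chaperones under the alternatives, 83 kept their sign and side of the threshold, 7 kept the sign and passed it, and 19 changed sign. The sign could not change in some of them. Trend and robust and the limits on the mean signal leave the fold change of a gene as it is. Averaging probes does the same for Dnajb1, Hsph1 and Hspe1, which have a single named probe.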
